A study of Mus musculus with 11 samples.

Results

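The genes described here are 41 genes of the amino acid response in mouse: transcription factors of the pathway, proteins that act in stressed cells, amino acid transporters, enzymes that make amino acids and folate-bound carbon units, and the enzymes that charge tRNA. They were taken by gene symbol from the count files, where all 41 of 41 were found among the 23284 genes listed. The cells were 266-6, a line grown from a mouse pancreatic acinar tumour, so every library comes from 1 cell line. The 4 groups were Arid1a siRNAs with EGF (n = 3), Arid1a siRNAs without EGF (n = 3), control siRNA with EGF (n = 3) and control siRNA without EGF (n = 2). Arid1a encodes the ARID1A subunit of the SWI/SNF chromatin remodelling complex, and its siRNAs were used at 25 nM for 48 h. The control was the non-targeting siRNA NT5, whose concentration is not given in the sources used here. All cells were kept without serum overnight and then received 40 ng/ml epidermal growth factor (EGF), or 0.1% BSA as its vehicle, for 8 h. The labels call the control cells wild type for Arid1a and name no other allele. As background, the tumour arose in a mouse with an SV40 T antigen transgene under an elastase promoter, so all 4 groups share that origin. Polyadenylated RNA was sequenced with a TruSeq kit that does not mark strand. The comparisons ask what EGF did after each siRNA, what the Arid1a siRNAs did with and without EGF, and whether the EGF response differed between the siRNAs.

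In the amino acid response, uncharged tRNA activates the kinase GCN2, which phosphorylates the initiation factor eIF2. Other eIF2 kinases respond to misfolded protein in the endoplasmic reticulum, to double-stranded RNA or to lack of haem. General translation then slows while the mRNA of the factor ATF4 is translated more. ATF4 binds DNA with C/EBP partners at composite elements and raises genes for amino acid uptake, amino acid synthesis and tRNA charging. Growth factors can raise many of the same genes through mTORC1 and ATF4. Acinar cells make more protein than most cells and use large amounts of amino acids for digestive enzymes.

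The composite element was searched as TGATGNAA on both strands in RefSeq promoter windows of 300 bases (250 before and 50 after each gene start, assembly GRCm38.p6). A window was available for 34 of the 41 genes. The 7 without one were Slc7a5, Slc1a5, Aldh1l2, Cars, Lars, Nars and Wars. The letters were found for 14 of 34 genes (41.2%), against 1219 of 27025 genes with a window (4.51%). The set was listed as genes of the pathway whose factor binds this element. A higher share may therefore follow from that choice, and it was not tested. By role they were found for 5 of 8 tRNA synthetases, 3 of 5 enzymes of other amino acids, 2 of 6 factors, 2 of 5 stress effectors, 2 of 5 transporters and 0 of 5 serine and folate enzymes. Of 16 matches, 11 in 10 genes were TGATGCAA on either strand. A match describes letters and is no measured binding site. The stretches of 30 bases shown here belong to matched genes that passed a test in at least 1 comparison, and are given because ATF4 and its partners are known to bind such letters. Each reads 5′ to 3′ on the strand of its gene, with the match in capitals. A match on the other strand therefore appears as its reverse complement (TTGCATCA for TGATGCAA).
Trib3, chr2:152344028-152344057, minus strand: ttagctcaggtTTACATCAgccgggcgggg
Nupr1, chr7:126625562-126625591, minus strand: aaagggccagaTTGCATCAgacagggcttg
Chac1, chr2:119351038-119351067, plus strand: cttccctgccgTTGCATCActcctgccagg
Vldlr, chr19:27216809-27216838, plus strand: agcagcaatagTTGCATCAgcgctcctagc
Slc7a11, chr3:50443661-50443690, minus strand: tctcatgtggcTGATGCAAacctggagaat
Slc7a11, chr3:50443642-50443671, minus strand: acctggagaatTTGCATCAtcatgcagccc
Slc1a4, chr11:20332699-20332728, minus strand: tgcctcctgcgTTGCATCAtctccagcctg
Asns, chr6:7693214-7693243, minus strand: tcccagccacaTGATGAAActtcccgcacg
Pck2, chr14:55540152-55540181, plus strand: agccttcaaagTTACATCAgtatcttacag
Gars, chr6:55037960-55037989, plus strand: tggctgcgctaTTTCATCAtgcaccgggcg
Iars, chr13:49682126-49682155, plus strand: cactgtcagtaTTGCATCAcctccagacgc
Tars, chr15:11399655-11399684, minus strand: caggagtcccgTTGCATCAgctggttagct
Yars, chr4:129189895-129189924, plus strand: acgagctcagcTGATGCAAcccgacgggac
The matches shown lay between 200 bases before the gene start (Vldlr) and 14 bases after it (Trib3). Slc7a11 held 2 matches, and Asns held TGATGAAA.

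Depth was 10279763 to 19773007 counted reads per library, and the 41 genes together took 0.686% to 0.929% of them. All 41 passed the filter on low counts, as did 13343 of the 23284 genes (57.3%). The labels do not state whether the replicates were grown as separate cultures. The p-values therefore reflect the spread among libraries within groups, and that spread may be technical. It was estimated over all 4 groups together and drawn toward that of other genes, so libraries outside a comparison also affect its p-values. Levels are given as CPM, read counts scaled to a common library size. Arid1a stood at 145, 122 and 152 CPM with the Arid1a siRNAs and EGF, against 308, 263 and 300.2 CPM with control siRNA and EGF. Its values were 151, 157 and 127 CPM with the Arid1a siRNAs alone, against 292 and 399.9 CPM with control siRNA alone. All libraries with the Arid1a siRNAs lay below all with control siRNA. The reduction in the presence of EGF was 2.08-fold (log2 -1.06 ± 0.12, edgeR adjusted p = 2.85e-05). In its absence the reduction was 2.38-fold (log2 -1.25 ± 0.13, edgeR adjusted p = 2.36e-05). Of 14 acinar markers, 12 were counted well enough to be tested, led by Ctrb1 at 11278 to 14335 CPM, while Amy2a5 was at 0 in all 11 libraries. Near copies of marker genes were not sought, so whether that 0 reflects the mRNA or the read mapping was not tested. Markers of other lineages moved with the groups. The summed level of 8 ductal markers was 116 to 130.1 CPM with the Arid1a siRNAs and EGF, 84.7 to 94.5 CPM with the Arid1a siRNAs alone, 190.4 to 217 CPM with control siRNA and EGF, and 106 to 145 CPM with control siRNA alone. That of 8 islet markers, mainly Chga and Pdx1 with Ins1, Ins2 and Sst at 0, was 990.1 to 1044, 826 to 978, 1505 to 1528 and 1143 to 1151 CPM in the same order. The ductal sum was mainly Sox9 and Onecut1, at means of 99.6 and 82.3 CPM with control siRNA and EGF. With EGF after control siRNA 3 ductal markers rose and 1, Krt19, fell. Krt19 did not pass with DESeq2 (adjusted p = 0.0713). The part of these markers in the results on the 41 genes was not tested. The 9 fibroblast and stellate markers summed to 283 to 337 CPM and the 8 of 9 immune and endothelial markers found in the files to 6.27 to 12.3 CPM over all libraries, with Lum, Cd3e and Cdh5 among those at 0.

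Levels per length came from 9 libraries of the deposited table of FPKM (a read level scaled to gene length and depth), 3 in each group other than control siRNA alone. Among the 41 mRNAs that of the stress-induced regulator Nupr1 had the highest median with the Arid1a siRNAs, at 429 FPKM with EGF and 461 FPKM without, ahead of Atf4 at 333 and 235 FPKM. With control siRNA and EGF the order differed, with Atf4 at 342 FPKM, Tars at 243 FPKM and Nupr1 at 231 FPKM. The ranges of neighbours in these orders did not overlap. Over the 9 libraries together the medians were 229 FPKM for Shmt2, 193 FPKM for Tars, 190.3 FPKM for Gars and 163 FPKM for Nars, with ranges that overlapped from each gene to the next. The 12 tRNA synthetases lay between a median of 42.4 FPKM (Iars) and that of Tars. At the low end stood Pycr1 at 4.13 FPKM and the cystine transporter Slc7a11 at 0.805 FPKM, whose ranges did not overlap (3.65 to 5.46 and 0.289 to 1.16 FPKM). The CPM values used from here on compare libraries, not genes.

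EGF raised most of the set after either siRNA. After the Arid1a siRNAs, 32 of 41 genes rose and 0 fell, against 13.0% and 10.4% (23.4% in either direction) of all 13343 genes tested. After control siRNA, 26 rose and 2 fell, against 16.8% and 18.8% (35.6% in either direction) of all genes. The median log2 change over the 41 genes was 0.36 after the Arid1a siRNAs and 0.39 after control siRNA, and that over all genes was -0.01 and -0.03. All 26 genes that rose after control siRNA also rose after the Arid1a siRNAs. A further 6 passed after the Arid1a siRNAs and not after control siRNA: Cebpb, Sesn2, Vldlr, Slc38a2, Psph and Aars. For none of the 6 did the difference between the EGF responses pass its own test. Among genes with the promoter letters, 11 of 14 rose with EGF after the Arid1a siRNAs and 9 of 14 after control siRNA. Among genes with a window and no match, 15 of 20 and 11 of 20 did so. In bulk RNA, a change in the number of cells of a type and a change in RNA per cell cannot be told apart. In the same comparisons the ductal and islet sums moved as given, and of 12 tested acinar markers 1 rose and 5 fell with EGF after the Arid1a siRNAs, and 1 rose and 7 fell after control siRNA. The marker that rose was the acinar factor Bhlha15 (log2 0.57 ± 0.14 and 1.15 ± 0.15), which no longer passed after the Arid1a siRNAs without replicate 1 of the Arid1a siRNAs and EGF or replicate 1 of the Arid1a siRNAs alone (edgeR adjusted p = 0.0517 and 0.0535). The 5 lower became 3 without replicate 1 of the Arid1a siRNAs and EGF or replicate 3 of the Arid1a siRNAs alone.

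Summed over all 41 genes, the level was 9186 to 9279 CPM with the Arid1a siRNAs and EGF, against 6978 to 7304 CPM with the Arid1a siRNAs alone, a ratio of 1.30 between means. It was 8849 to 8949 CPM with control siRNA and EGF, against 6870 to 6910.3 CPM with control siRNA alone, a ratio of 1.29. No library with EGF overlapped one without. By role, the ratio of EGF to vehicle after the Arid1a siRNAs was 1.42 for the transporters, 1.39 for serine and folate enzymes, 1.27 for the synthetases and for other amino acid enzymes, 1.21 for the factors and 1.198 for the stress effectors. After control siRNA it was 1.41, 1.33, 1.29, 1.24, 1.21 and 1.03 in the corresponding order (synthetases before other enzymes). The stress effectors were the group whose sums with and without EGF overlapped after control siRNA, at 303 to 351 CPM with EGF against 281 to 349 CPM without it.

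**Figure D1:**
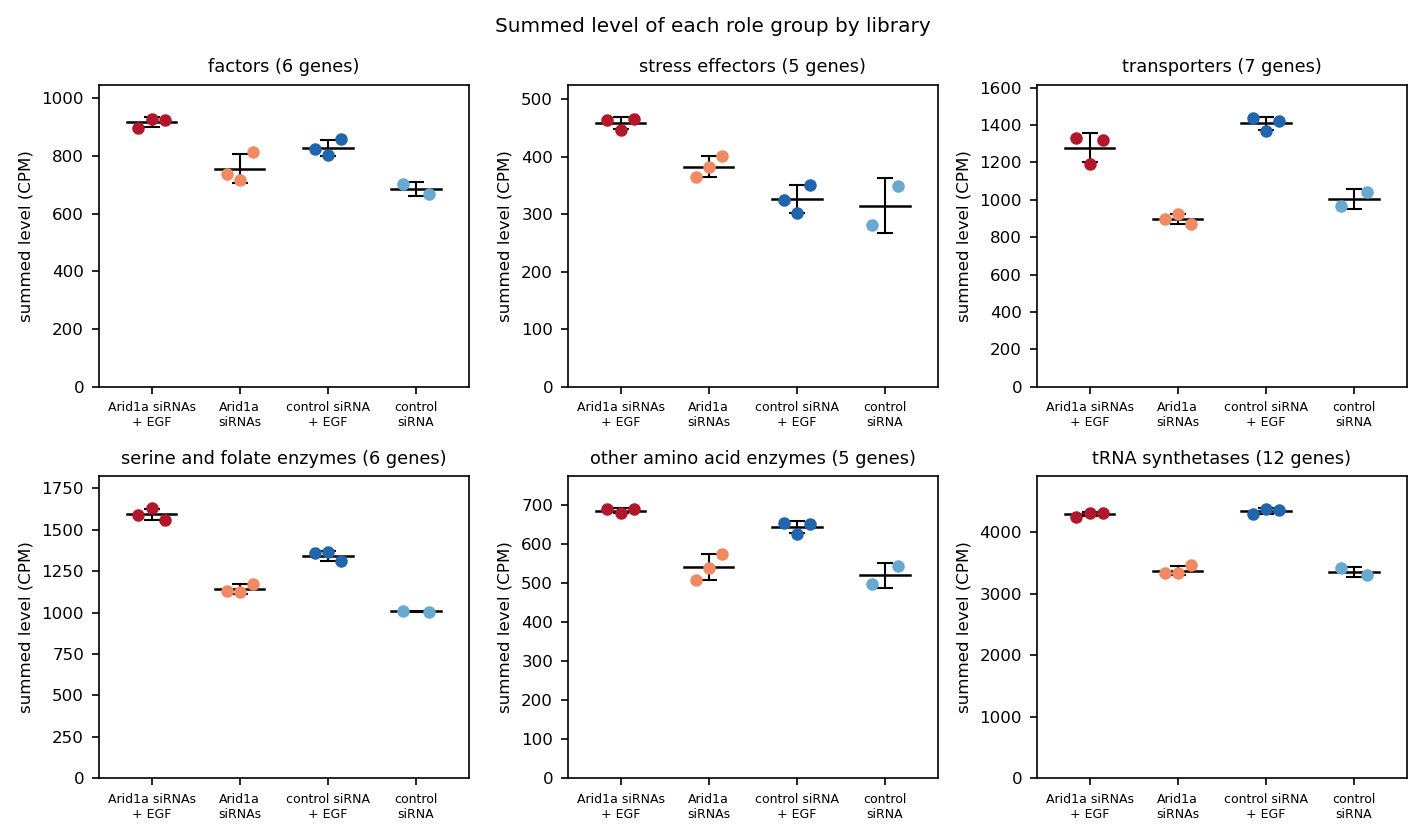
Summed level in CPM (scaled read counts, linear axis from 0) of each role group. Points are libraries, horizontal lines are group means and bars are SD (n = 3, 3, 3 and 2). With EGF the 7 transporters reached 1190.4 to 1330.4 CPM after the Arid1a siRNAs and 1371 to 1437 CPM after control siRNA, above every library without EGF (873 to 1041 CPM).

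Among the 6 factors, Atf4 and Trib3 rose with EGF after both siRNAs. Atf4, the central factor of the response, stood at 547, 563 and 576 CPM with the Arid1a siRNAs and EGF, against 396, 393 and 440.2 CPM with the Arid1a siRNAs alone. It measured 576, 556 and 608 CPM with control siRNA and EGF, against 431 and 426 CPM with control siRNA alone. The EGF libraries lay above the others after each siRNA, and the changes were close (log2 0.46 ± 0.06, edgeR adjusted p = 4.04e-05 after the Arid1a siRNAs, log2 0.44 ± 0.06, edgeR adjusted p = 7.63e-05 after control siRNA). Trib3, a pseudokinase that binds ATF4 and is induced by it, stood at 24.2, 22.3 and 24.3 CPM with the Arid1a siRNAs and EGF, against 13.0, 13.2 and 14.8 CPM with the Arid1a siRNAs alone. The libraries held 16.9, 14.2 and 19.99 CPM with control siRNA and EGF, against 11.3 and 13.3 CPM with control siRNA alone. Its groups did not overlap after either siRNA, and it rose 1.73-fold (log2 0.79 ± 0.12, edgeR adjusted p = 0.000262) and 1.38-fold (log2 0.47 ± 0.14, edgeR adjusted p = 0.0145). After control siRNA, Trib3 no longer passed without replicate 3 of control siRNA and EGF, or replicate 1 of control siRNA alone (edgeR adjusted p between 0.0636 and 0.158). Cebpb, a C/EBP factor, stood at 16.6, 19.5 and 21.3 CPM with the Arid1a siRNAs and EGF, against 12.3, 10.9 and 13.5 CPM with the Arid1a siRNAs alone. Its values were 11.01, 11.3 and 12.9 CPM with control siRNA and EGF, against 13.0 and 9.38 CPM with control siRNA alone. With the Arid1a siRNAs the EGF libraries lay above the others and the gene passed the test (log2 0.65 ± 0.14, edgeR adjusted p = 0.00301). With control siRNA the groups overlapped (log2 0.05 ± 0.15, edgeR adjusted p = 0.836). Of the exon bases of Cebpb, 20.7% lie opposite Tmem189, and the library kit does not mark strand, so their reads cannot be told apart.

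Ddit3, which encodes the death-promoting factor CHOP, stood at 24.0, 23.5 and 21.7 CPM with the Arid1a siRNAs and EGF, against 18.7, 20.1 and 19.9 CPM with the Arid1a siRNAs alone. It measured 18.9, 20.3 and 17.0 CPM with control siRNA and EGF, against 18.1 and 17.4 CPM with control siRNA alone. All EGF libraries with the Arid1a siRNAs lay above those without EGF, yet Ddit3 passed neither test (log2 0.24 ± 0.09, edgeR adjusted p = 0.065 and, after control siRNA, log2 0.08 ± 0.10, edgeR adjusted p = 0.572). In FPKM it passed after the Arid1a siRNAs (limma adjusted p = 0.0372 and 0.0383 with 1 and 0.1 added to each value). Ddit3 shares 68 exon bases with Mars on the opposite strand. Cebpg, another C/EBP partner, had log2 changes of 0.07 ± 0.06 after the Arid1a siRNAs and 0.07 ± 0.07 after control siRNA and passed neither test. Nupr1, known as a gene of the stressed pancreas, fell with EGF after control siRNA (log2 -0.24 ± 0.08, edgeR adjusted p = 0.0306). Its values were 113, 113 and 110.2 CPM with control siRNA and EGF, against 141 and 123 CPM with control siRNA alone. It no longer passed without replicate 1, 2 or 3 of control siRNA and EGF, or replicate 1 of control siRNA alone (edgeR adjusted p between 0.0604 and 0.284). After the Arid1a siRNAs its libraries with and without EGF overlapped (log2 -0.10 ± 0.07, edgeR adjusted p = 0.357).

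Of the 5 stress effectors, Stc2 and Chac1 rose after both siRNAs. Stc2, a secreted glycoprotein, stood at 18.9, 20.7 and 19.9 CPM with the Arid1a siRNAs and EGF, against 13.1, 11.8 and 13.0 CPM with the Arid1a siRNAs alone. The libraries held 17.9, 16.7 and 19.99 CPM with control siRNA and EGF, against 10.3 and 9.53 CPM with control siRNA alone. The EGF libraries were higher with no overlap, by 1.58-fold (log2 0.66 ± 0.10, edgeR adjusted p = 0.000215) and 1.83-fold (log2 0.87 ± 0.11, edgeR adjusted p = 2.64e-05). Chac1, an enzyme that degrades glutathione, stood at 17.7, 16.2 and 16.8 CPM with the Arid1a siRNAs and EGF, against 8.49, 11.5 and 12.5 CPM with the Arid1a siRNAs alone. Its values were 15.2, 14.3 and 17.8 CPM with control siRNA and EGF, against 10.8 and 11.9 CPM with control siRNA alone. It was likewise higher in each EGF library (log2 0.63 ± 0.13, edgeR adjusted p = 0.00283 and, after control siRNA, log2 0.47 ± 0.14, edgeR adjusted p = 0.0181). After control siRNA, Chac1 no longer passed without replicate 3 of control siRNA and EGF, or replicate 1 of control siRNA alone (edgeR adjusted p between 0.0743 and 0.13). Vldlr, a lipoprotein receptor, and Sesn2, an inhibitor of mTORC1, passed after the Arid1a siRNAs (log2 0.30 ± 0.09, edgeR adjusted p = 0.0217 and log2 0.27 ± 0.09, edgeR adjusted p = 0.0394) and not after control siRNA (log2 0.11 ± 0.10 and -0.03 ± 0.10). Vldlr no longer passed without replicate 1 or 3 of the Arid1a siRNAs and EGF, or replicate 1 or 3 of the Arid1a siRNAs alone (edgeR adjusted p between 0.065 and 0.109). Sesn2 no longer passed without replicate 1, 2 or 3 of the Arid1a siRNAs and EGF, or replicate 1 or 2 of the Arid1a siRNAs alone, or replicate 1 of control siRNA and EGF (edgeR adjusted p between 0.0538 and 0.143). Ddit4, which also restrains mTORC1, passed neither test, with log2 changes of 0.21 ± 0.08 and -0.03 ± 0.09. It passed after the Arid1a siRNAs without replicate 1 or 2 of control siRNA alone (edgeR adjusted p between 0.0254 and 0.0281).

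The gene with the largest fold change with EGF was a transporter after each siRNA, Slc7a11 after the Arid1a siRNAs and Slc7a1 after control siRNA, where the stress effector Stc2 came next. After the Arid1a siRNAs 7 of 7 rose and after control siRNA 6 of 7. Slc7a1, the main carrier of arginine and lysine, stood at 263, 206 and 258 CPM with the Arid1a siRNAs and EGF, against 126, 135 and 113 CPM with the Arid1a siRNAs alone. It measured 448, 388 and 429 CPM with control siRNA and EGF, against 191 and 244 CPM with control siRNA alone. With EGF it rose 1.95-fold after the Arid1a siRNAs (log2 0.96 ± 0.11, edgeR adjusted p = 5.16e-05) and 1.94-fold after control siRNA (log2 0.95 ± 0.12, edgeR adjusted p = 5.9e-05), with no overlap. Slc7a11, the cystine and glutamate exchanger, was scarce, at 11.3, 8.04 and 10.4 CPM with the Arid1a siRNAs and EGF, against 4.94, 5.47 and 2.87 CPM with the Arid1a siRNAs alone. The libraries held 11.1, 7.34 and 11.6 CPM with control siRNA and EGF, against 5.01 and 6.45 CPM with control siRNA alone. Every EGF library was higher (log2 1.13 ± 0.23, edgeR adjusted p = 0.00288 and, after control siRNA, log2 0.81 ± 0.24, edgeR adjusted p = 0.0178), with a wide error at 33 to 160 reads per library. After control siRNA it no longer passed without replicate 1 or 3 of control siRNA and EGF, or replicate 1 of control siRNA alone (edgeR adjusted p between 0.0599 and 0.168).

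Slc1a4, a carrier of small neutral amino acids, stood at 43.9, 36.5 and 44.3 CPM with the Arid1a siRNAs and EGF, against 21.1, 22.6 and 25.5 CPM with the Arid1a siRNAs alone. Its values were 41.6, 38.9 and 42.4 CPM with control siRNA and EGF, against 23.1 and 24.4 CPM with control siRNA alone. The groups were well apart after each siRNA (log2 0.85 ± 0.09, edgeR adjusted p = 1.69e-05 and, after control siRNA, log2 0.79 ± 0.10, edgeR adjusted p = 3.39e-05). Slc7a5, which carries leucine and other large neutral amino acids, stood at 248, 228 and 253 CPM with the Arid1a siRNAs and EGF, against 151, 149 and 153 CPM with the Arid1a siRNAs alone. It measured 222, 207 and 219 CPM with control siRNA and EGF, against 122 and 135 CPM with control siRNA alone. It rose 1.61-fold (log2 0.69 ± 0.06, edgeR adjusted p = 1.2e-06) and 1.69-fold (log2 0.75 ± 0.07, edgeR adjusted p = 8.45e-07). Its partner chain Slc3a2 rose with log2 changes of 0.52 ± 0.06 and 0.51 ± 0.07. The glutamine carrier Slc1a5 rose as well, by log2 0.38 ± 0.06 and 0.47 ± 0.07. Slc38a2, a sodium-coupled carrier that starvation is known to induce, rose after the Arid1a siRNAs (log2 0.25 ± 0.06, edgeR adjusted p = 0.0052) and did not pass after control siRNA (log2 0.04 ± 0.06, edgeR adjusted p = 0.634).

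Of the 6 serine and folate enzymes, 4 rose after the Arid1a siRNAs and 3 after control siRNA. Psat1, the aminotransferase of serine synthesis, stood at 307, 325 and 308 CPM with the Arid1a siRNAs and EGF, against 201, 197 and 219 CPM with the Arid1a siRNAs alone. The libraries held 221, 219.7 and 223 CPM with control siRNA and EGF, against 130.1 and 139 CPM with control siRNA alone. Each EGF library exceeded each library without EGF (1.52-fold, log2 0.61 ± 0.05, edgeR adjusted p = 1.96e-06, and 1.65-fold, log2 0.72 ± 0.06, edgeR adjusted p = 6.58e-07). Mthfd2, a mitochondrial folate dehydrogenase, stood at 221, 209.9 and 228 CPM with the Arid1a siRNAs and EGF, against 133, 138 and 146 CPM with the Arid1a siRNAs alone. Its values were 208, 206 and 207 CPM with control siRNA and EGF, against 135 and 129.9 CPM with control siRNA alone. The replicates were tight and the groups apart (log2 0.66 ± 0.05, edgeR adjusted p = 8.19e-07 and log2 0.64 ± 0.06, edgeR adjusted p = 1.59e-06). Shmt2, which splits serine in mitochondria, stood at 642, 696 and 619.8 CPM with the Arid1a siRNAs and EGF, against 428, 409 and 435 CPM with the Arid1a siRNAs alone. It measured 534, 555 and 509 CPM with control siRNA and EGF, against 382 and 356 CPM with control siRNA alone. It rose 1.54-fold (log2 0.62 ± 0.06, edgeR adjusted p = 2.74e-06) and 1.44-fold (log2 0.53 ± 0.06, edgeR adjusted p = 1.85e-05). Psph, the phosphatase that completes serine synthesis, passed after the Arid1a siRNAs (log2 0.35 ± 0.07, edgeR adjusted p = 0.00236) and not after control siRNA (log2 0.20 ± 0.08, edgeR adjusted p = 0.0729), where it passed without replicate 1 of control siRNA alone (edgeR adjusted p = 0.0227). Of its exon bases 10.4% lie opposite transcripts of Cct6a.

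Phgdh, the dehydrogenase that opens serine synthesis, did not pass, with log2 changes of 0.21 ± 0.08 (edgeR adjusted p = 0.0646) and 0.11 ± 0.09 (edgeR adjusted p = 0.335). It passed after the Arid1a siRNAs without replicate 3 of the Arid1a siRNAs alone (edgeR adjusted p = 0.0104). The pseudogenes Gm7901 and Gm9347 match 1597 and 1608 bases of Phgdh at 98.7% and 97.4% identity, so its count is uncertain. Aldh1l2, a mitochondrial folate enzyme, ranged from 149.97 to 203 CPM over all libraries and passed no test. Of its exon bases 14.1% lie opposite D10Wsu102e.

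Among 5 enzymes of other amino acids, Asns and Aldh18a1 rose after both siRNAs. Asns, asparagine synthetase, stood at 224, 222 and 231 CPM with the Arid1a siRNAs and EGF, against 136, 137 and 154 CPM with the Arid1a siRNAs alone. The libraries held 231, 222 and 245 CPM with control siRNA and EGF, against 133 and 150.1 CPM with control siRNA alone. Its groups did not overlap, and it rose 1.59-fold (log2 0.67 ± 0.07, edgeR adjusted p = 5.44e-06) and 1.64-fold (log2 0.72 ± 0.07, edgeR adjusted p = 3.91e-06). Aldh18a1, which makes the precursor of proline, stood at 162, 154 and 159 CPM with the Arid1a siRNAs and EGF, against 118, 123 and 122 CPM with the Arid1a siRNAs alone. Its values were 231, 223 and 210.2 CPM with control siRNA and EGF, against 157 and 168 CPM with control siRNA alone. It was higher in each EGF library (log2 0.39 ± 0.05, edgeR adjusted p = 0.000126 and log2 0.45 ± 0.06, edgeR adjusted p = 4.22e-05). Gpt2, a mitochondrial alanine aminotransferase, stood at 49.2, 51.1 and 48.0 CPM with the Arid1a siRNAs and EGF, against 53.6, 50.3 and 49.9 CPM with the Arid1a siRNAs alone. It measured 42.8, 42.9 and 42.3 CPM with control siRNA and EGF, against 56.1 and 54.9 CPM with control siRNA alone. It fell with EGF after control siRNA, 1.30-fold (log2 -0.38 ± 0.07, edgeR adjusted p = 0.000386), while after the Arid1a siRNAs the libraries overlapped (log2 -0.05 ± 0.06, edgeR adjusted p = 0.587). Pck2, the mitochondrial phosphoenolpyruvate carboxykinase, passed neither test (log2 0.18 ± 0.07, edgeR adjusted p = 0.0823 and log2 -0.12 ± 0.08, edgeR adjusted p = 0.288). It passed after the Arid1a siRNAs without replicate 3 of the Arid1a siRNAs alone (edgeR adjusted p = 0.0225). Pycr1, which completes proline synthesis, ranged from 11.4 to 17.5 CPM over all libraries and passed no test.

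All 12 of the 12 listed tRNA synthetases rose with EGF after the Arid1a siRNAs, and 11 of 12 after control siRNA. Their folds lay between 1.15 and 1.48 after the Arid1a siRNAs and between 1.02 and 1.47 after control siRNA. Iars, which charges isoleucine, stood at 219, 193 and 219 CPM with the Arid1a siRNAs and EGF, against 144, 148 and 133 CPM with the Arid1a siRNAs alone. The libraries held 214, 198 and 203 CPM with control siRNA and EGF, against 137 and 143 CPM with control siRNA alone. It rose the most of the 12 after each siRNA (log2 0.57 ± 0.06, edgeR adjusted p = 2.1e-05 and log2 0.55 ± 0.07, edgeR adjusted p = 3.34e-05). Tars, for threonine, stood at 518, 544 and 525 CPM with the Arid1a siRNAs and EGF, against 406, 384 and 398 CPM with the Arid1a siRNAs alone. Its values were 644, 677 and 658 CPM with control siRNA and EGF, against 493 and 442 CPM with control siRNA alone. The groups were apart after each siRNA (log2 0.42 ± 0.05, edgeR adjusted p = 5.21e-05 and log2 0.50 ± 0.06, edgeR adjusted p = 1.37e-05). Nars, for asparagine, stood at 422, 443 and 448 CPM with the Arid1a siRNAs and EGF, against 325, 317 and 337 CPM with the Arid1a siRNAs alone. It measured 487, 504 and 494 CPM with control siRNA and EGF, against 390.0 and 364 CPM with control siRNA alone. It rose by similar amounts (log2 0.42 ± 0.05, edgeR adjusted p = 2.92e-05 and log2 0.39 ± 0.06, edgeR adjusted p = 6.96e-05). Eprs, which charges both glutamate and proline, rose by log2 0.34 ± 0.05 and 0.53 ± 0.06.

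Aars, for alanine, was the synthetase that did not pass after control siRNA (log2 0.03 ± 0.05, edgeR adjusted p = 0.722), where its groups overlapped. It passed after the Arid1a siRNAs (log2 0.21 ± 0.05, edgeR adjusted p = 0.00469). Of its exon bases 14.3% are shared with Exosc6 on the same strand, so reads there are uncertain. Mars, for methionine, rose by log2 0.25 ± 0.05 and 0.24 ± 0.05, and Cars, for cysteine, by log2 0.34 ± 0.05 and 0.24 ± 0.06. After control siRNA, Cars no longer passed without replicate 2 of control siRNA alone (edgeR adjusted p = 0.0724). The summed level of the 12 genes was 4298 ± 34.8 CPM with the Arid1a siRNAs and EGF, against 3380 ± 76.0 CPM with the Arid1a siRNAs alone (SD, n = 3 each). It was 4346 ± 44.5 CPM with control siRNA and EGF (SD, n = 3), against 3358 ± 78.5 CPM with control siRNA alone (SD, n = 2).

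**Figure D2:**
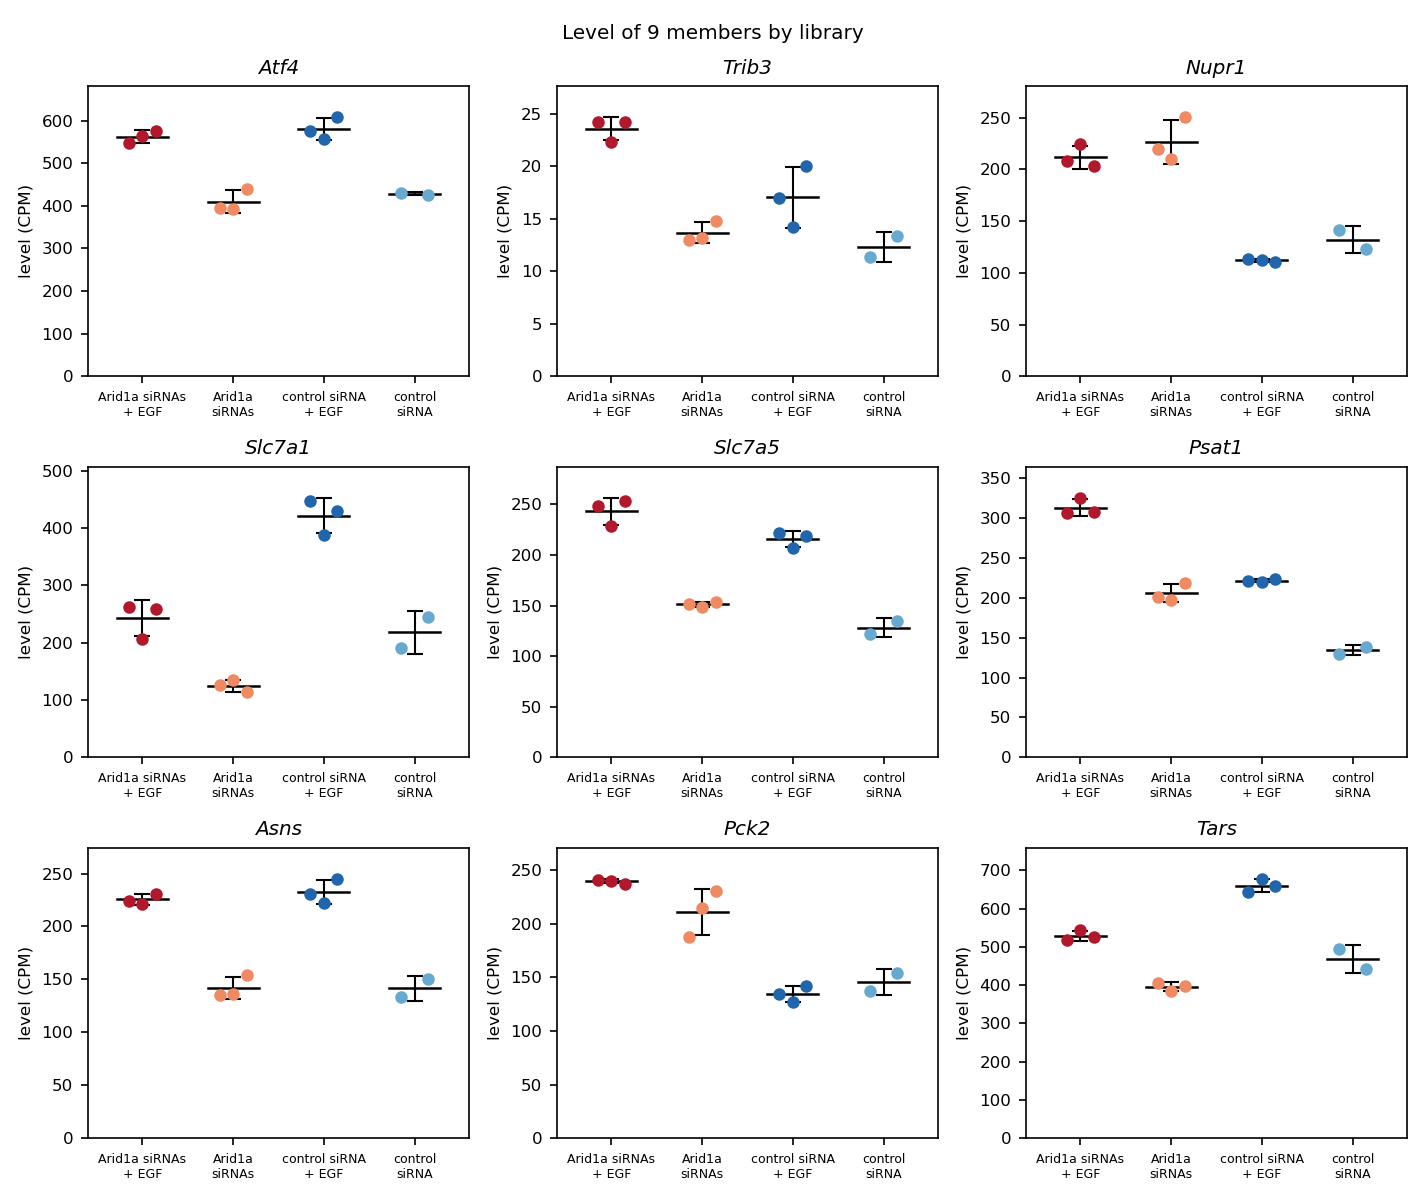
Level in CPM (scaled read counts, linear axes from 0) of 9 of the genes. Points are libraries, horizontal lines group means and bars SD (n = 3, 3, 3 and 2). Atf4, Asns and Slc7a5 are high in both EGF groups, Nupr1 and Pck2 are high in both groups with Arid1a siRNAs, Psat1 is lifted by each, and Slc7a1 and Tars are highest with control siRNA and EGF.

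Other genes of tRNA charging outside the set were counted for comparison. Of all genes tested, 13.0% rose and 10.4% fell with EGF after the Arid1a siRNAs. After control siRNA 16.8% rose and 18.8% fell. Of 11 other cytosolic synthetases and scaffold proteins of the synthetase complex, 8 rose with EGF after the Arid1a siRNAs and 11 after control siRNA. The first count was 4 without replicate 2 of the Arid1a siRNAs alone, and the second was 7 without replicate 2 of control siRNA alone. Vars, which charges valine, averaged 649.6 ± 33.4 CPM with the Arid1a siRNAs and EGF, against 476 ± 7.97 CPM with the Arid1a siRNAs alone (log2 0.45 ± 0.05, edgeR adjusted p = 2.92e-05). It averaged 627 ± 25.3 CPM with control siRNA and EGF, against 453 ± 17.3 CPM with control siRNA alone (log2 0.47 ± 0.06, edgeR adjusted p = 2.32e-05, means ± SD, n = 3, or 2 for control siRNA alone). Eef1e1, a scaffold of the complex, rose by log2 0.70 ± 0.09 and 0.90 ± 0.09. Of 17 mitochondrial synthetases, 3 rose (17.6%) and 1 fell (5.88%) after the Arid1a siRNAs, where the share higher was near that of all genes. After control siRNA 7 rose (41.2%) and 1 fell (5.88%). The 3 higher became 1 without replicate 2 of the Arid1a siRNAs alone. Yars2 and Mars2 were among those higher after control siRNA, by log2 0.34 ± 0.09 and 0.63 ± 0.12. Yars2 no longer passed there without replicate 2 of control siRNA alone (edgeR adjusted p = 0.0598).

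Of 13 tested genes from a list of other reported ATF4 targets, 6 rose (46.2%) and 1 fell (7.69%) with EGF after the Arid1a siRNAs. After control siRNA 5 rose (38.5%) and 2 fell (15.4%). Of all genes, 13.0% rose and 10.4% fell after the Arid1a siRNAs, and 16.8% and 18.8% after control siRNA. The 1 gene that fell after the Arid1a siRNAs, Fam129a, no longer passed without replicate 2 of the Arid1a siRNAs alone. After control siRNA the 2 lower became 1 without replicate 3 of the Arid1a siRNAs and EGF or replicate 2 or 3 of control siRNA and EGF. Gdf15, a secreted stress cytokine, rose 1.99-fold (4.49e-05 as edgeR adjusted p) and 1.78-fold (0.000269). Eif4ebp1, a brake on translation, rose after the Arid1a siRNAs (log2 0.73 ± 0.11, edgeR adjusted p = 0.000162) and after control siRNA (log2 0.78 ± 0.10, edgeR adjusted p = 3.13e-05). Fam129a fell after control siRNA (log2 -0.81 ± 0.11, edgeR adjusted p = 4.49e-05). Of 14 genes for eIF2 kinases, their regulators, phosphatase subunits and eIF2B, 7 rose (50%) and 1 fell (7.14%) after the Arid1a siRNAs. After control siRNA 6 rose (42.9%) and 1 fell (7.14%), against the shares of all genes just given. The count of 7 became 4 without replicate 1 or 3 of the Arid1a siRNAs and EGF. Eif2s1, which encodes the phosphorylated eIF2 subunit, rose by log2 0.43 ± 0.07 and 0.49 ± 0.07.

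With the Arid1a siRNAs, genes of the set passed in both directions. With EGF, 18 of 41 genes rose and 7 fell, against 23.7% and 23.2% of all genes tested. Without EGF, 11 rose and 6 fell, against 18.8% and 20.1% of all genes. In either direction 46.9% of all genes passed with EGF. Without EGF, 41.5% of the set passed in either direction, against 38.9% of all genes, a share near the background. The median log2 change of the set was 0.08 with EGF and 0.02 without, and that of all genes was 0.00 and -0.01. Of the set, 9 genes rose and 6 fell in both states. Among genes with the promoter letters, 6 of 14 rose and 1 fell with EGF, and 3 rose and 1 fell without. Among those with a window and no match, 10 of 20 rose and 3 fell with EGF, and 7 rose and 3 fell without. With upper-quartile scaling the split without EGF was 14 higher and 4 lower, and over all genes 3129 higher and 2025 lower in place of 2505 and 2685.

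By role with EGF, 4 factors rose and 1 fell, 3 stress effectors rose, 2 transporters rose and 2 fell, 3 serine and folate enzymes rose, 2 other enzymes rose and 1 fell, and 4 synthetases rose and 3 fell. Without EGF the counts were 1 and 1, 3 and 0, 1 and 2, 3 and 0, 1 and 1, and 2 and 2. Of all genes, 23.7% rose and 23.2% fell with EGF, and 18.8% and 20.1% without. Near these shares without EGF were the factors and the synthetases (16.7% in each direction) and other enzymes (20% in each). With EGF the transporters (28.6% in each direction) and the synthetases that fell (25%) were also near them. No stress effector and no serine or folate enzyme fell in either state. Summed over all 41 genes the level with the Arid1a siRNAs was 1.04 times that with control siRNA in the presence of EGF and 1.03 times without it. The sum of the 12 synthetases was 0.989 and 1.01 times that with control siRNA. In these comparisons 5 acinar markers of 12 tested rose in each state, and 3 fell with EGF and 4 without (2 without replicate 1 of the Arid1a siRNAs alone or replicate 2 of control siRNA alone), beside the ductal and islet sums given above. The part of these in the results was not tested.

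**Figure D3:**
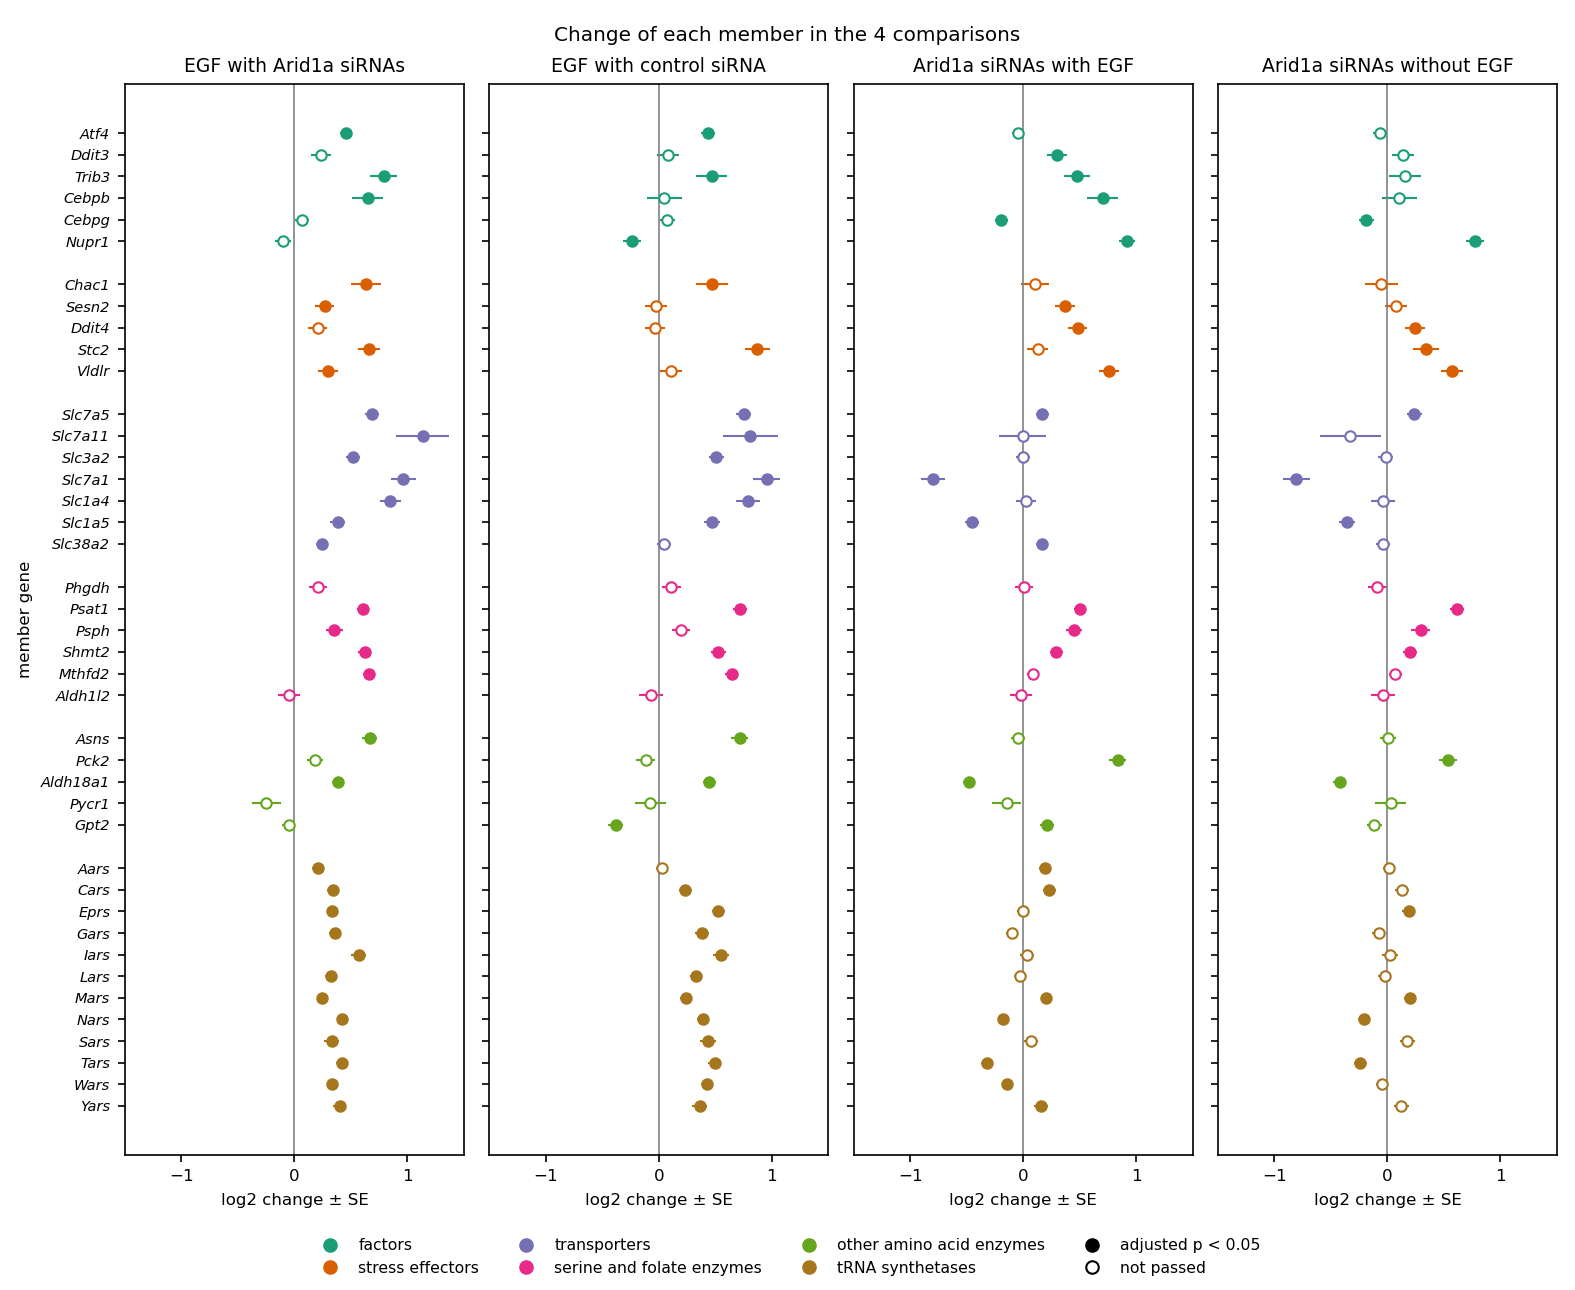
log2 change with its standard error for each of the 41 genes (rows, grouped by role) in the 4 comparisons (panels, common axis). Filled points passed edgeR at an adjusted p under 0.05. In the EGF panels 32 genes after the Arid1a siRNAs and 26 after control siRNA lie filled to the right of 0, and in the panels for the Arid1a siRNAs filled points lie on both sides.

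The key factor Atf4 did not pass with the Arid1a siRNAs (log2 -0.04 ± 0.05, edgeR adjusted p = 0.53 with EGF, log2 -0.07 ± 0.06, edgeR adjusted p = 0.433 without). The 95% intervals of its log2 change were -0.16 to 0.07 and -0.20 to 0.07. Nupr1 rose in both states. It stood at 208, 224 and 203 CPM with the Arid1a siRNAs and EGF, against 113, 113 and 110.2 CPM with control siRNA and EGF. The libraries held 219.7, 209.6 and 250.5 CPM with the Arid1a siRNAs alone, against 141 and 123 CPM with control siRNA alone. All libraries with the Arid1a siRNAs lay above all libraries with control siRNA, at 1.89-fold with EGF (log2 0.92 ± 0.07, edgeR adjusted p = 1.96e-07) and 1.71-fold without (log2 0.78 ± 0.08, edgeR adjusted p = 5.47e-06). With EGF, Cebpb, Trib3 and Ddit3 were higher too (log2 0.70 ± 0.13, edgeR adjusted p = 0.000612, log2 0.47 ± 0.12, edgeR adjusted p = 0.00375 and log2 0.30 ± 0.09, edgeR adjusted p = 0.0113). Ddit3 no longer passed without replicate 3 of control siRNA and EGF (edgeR adjusted p = 0.0559). Without EGF these 3 genes did not pass, with log2 changes of 0.10 ± 0.16, 0.15 ± 0.14 and 0.14 ± 0.10. Cebpg fell in both states (log2 -0.19 ± 0.06, edgeR adjusted p = 0.0178 and log2 -0.19 ± 0.07, edgeR adjusted p = 0.0396). With EGF, Cebpg no longer passed without replicate 1 of the Arid1a siRNAs and EGF, or replicate 3 of control siRNA and EGF (edgeR adjusted p between 0.057 and 0.0633). In cells without EGF it no longer passed without replicate 1 or 3 of the Arid1a siRNAs and EGF, or replicate 2 or 3 of the Arid1a siRNAs alone, or replicate 1, 2 or 3 of control siRNA and EGF, or replicate 1 of control siRNA alone (edgeR adjusted p between 0.0501 and 0.334).

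Among the stress effectors, Vldlr and Ddit4 rose in both states. Vldlr stood at 99.4, 86.4 and 101 CPM with the Arid1a siRNAs and EGF, against 60.9, 51.3 and 57.3 CPM with control siRNA and EGF. Its values were 78.1, 80.7 and 74.6 CPM with the Arid1a siRNAs alone, against 47.4 and 57.9 CPM with control siRNA alone. Its groups were apart, at 1.69-fold (log2 0.76 ± 0.09, edgeR adjusted p = 6.85e-06) and 1.48-fold (log2 0.57 ± 0.10, edgeR adjusted p = 0.000421). Ddit4 stood at 293, 291 and 295 CPM with the Arid1a siRNAs and EGF, against 206, 196 and 228 CPM with control siRNA and EGF. It measured 239, 252 and 272 CPM with the Arid1a siRNAs alone, against 189 and 241 CPM with control siRNA alone. The groups were apart with EGF (log2 0.48 ± 0.08, edgeR adjusted p = 0.000246) and overlapped without (log2 0.24 ± 0.09, edgeR adjusted p = 0.0481). In the absence of EGF, Ddit4 no longer passed without replicate 1, 2 or 3 of the Arid1a siRNAs and EGF, or replicate 2 or 3 of the Arid1a siRNAs alone, or replicate 1 of control siRNA and EGF, or replicate 1 of control siRNA alone (edgeR adjusted p between 0.0532 and 0.519). Sesn2 rose with EGF (log2 0.37 ± 0.09, edgeR adjusted p = 0.00286), and Stc2 without EGF (log2 0.34 ± 0.11, edgeR adjusted p = 0.0286). Stc2 no longer passed without replicate 1 or 3 of the Arid1a siRNAs alone, or replicate 1 or 2 of control siRNA alone (edgeR adjusted p between 0.0596 and 0.131). Chac1 passed in neither state (log2 0.11 ± 0.12, edgeR adjusted p = 0.511 and log2 -0.05 ± 0.15, edgeR adjusted p = 0.805).

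The transporters split. Slc7a1, whose values in every library are given with the EGF results, was lower with the Arid1a siRNAs by 1.74-fold with EGF (log2 -0.80 ± 0.11, edgeR adjusted p = 5.87e-05) and 1.75-fold without (log2 -0.81 ± 0.12, edgeR adjusted p = 0.000212), and the groups did not overlap in either state. Its levels with the Arid1a siRNAs and EGF lay in the range of those with control siRNA alone or just above. Slc1a5 stood at 92.2, 87.6 and 88.2 CPM with the Arid1a siRNAs and EGF, against 119, 132 and 115 CPM with control siRNA and EGF. The libraries held 70.4, 67.7 and 67.6 CPM with the Arid1a siRNAs alone, against 91.4 and 84.1 CPM with control siRNA alone. It was lower in both states without overlap (log2 -0.45 ± 0.06, edgeR adjusted p = 3.95e-05 and log2 -0.36 ± 0.07, edgeR adjusted p = 0.00108). Slc7a5 was higher (log2 0.17 ± 0.06, edgeR adjusted p = 0.0234 and log2 0.24 ± 0.07, edgeR adjusted p = 0.0102). With EGF, Slc7a5 no longer passed without replicate 1 or 3 of the Arid1a siRNAs and EGF, or replicate 2 of control siRNA and EGF (edgeR adjusted p between 0.0814 and 0.101). In cells without EGF it no longer passed without replicate 1 of control siRNA alone (edgeR adjusted p = 0.12). Slc38a2 rose with EGF (log2 0.17 ± 0.06), which no longer passed without replicate 1 or 3 of the Arid1a siRNAs and EGF, or replicate 1, 2 or 3 of control siRNA and EGF (edgeR adjusted p between 0.0574 and 0.103). Slc7a11, Slc3a2 and Slc1a4 passed in neither state.

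Of the 3 genes of serine synthesis, Psat1 and Psph were higher with the Arid1a siRNAs and Phgdh passed in neither state. Psat1 rose 1.42-fold with EGF (log2 0.50 ± 0.05, edgeR adjusted p = 3.51e-06) and 1.53-fold without (log2 0.62 ± 0.06, edgeR adjusted p = 3.44e-06). Its 3 libraries with the Arid1a siRNAs and EGF lay above all others. Psph stood at 95.1, 96.1 and 88.2 CPM with the Arid1a siRNAs and EGF, against 65.99, 73.4 and 64.9 CPM with control siRNA and EGF. Its values were 75.5, 70.5 and 72.8 CPM with the Arid1a siRNAs alone, against 64.0 and 54.7 CPM with control siRNA alone. It was higher without overlap (log2 0.45 ± 0.07, edgeR adjusted p = 0.00013 and log2 0.29 ± 0.08, edgeR adjusted p = 0.0105). In cells without EGF, Psph no longer passed without replicate 2 of control siRNA alone (edgeR adjusted p = 0.127). Shmt2 rose as well (log2 0.29 ± 0.06, edgeR adjusted p = 0.000653 and log2 0.20 ± 0.06, edgeR adjusted p = 0.0239), and in cells without EGF it no longer passed without replicate 2 of control siRNA alone (edgeR adjusted p = 0.172). Phgdh (log2 0.01 ± 0.08 with EGF and -0.09 ± 0.09 without), Mthfd2 and Aldh1l2 passed in neither state. For the contrast with EGF, deviations of same-numbered libraries correlated above 0, though the labels name no pairing. A fit of those 2 groups with the number as a block, chosen after seeing the data, called Mthfd2 (log2 0.09, edgeR adjusted p = 0.0174).

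Pck2 stood at 241, 240.3 and 237 CPM with the Arid1a siRNAs and EGF, against 134, 127 and 142 CPM with control siRNA and EGF. It measured 188, 215 and 230.4 CPM with the Arid1a siRNAs alone, against 137 and 154 CPM with control siRNA alone. It was 1.79-fold higher with EGF (log2 0.84 ± 0.07, edgeR adjusted p = 5.14e-07) and 1.45-fold higher without (log2 0.54 ± 0.08, edgeR adjusted p = 0.000146), with no overlap. Aldh18a1 went the other way, 1.40-fold lower (log2 -0.48 ± 0.05, edgeR adjusted p = 4.64e-06) and 1.34-fold lower (log2 -0.42 ± 0.06, edgeR adjusted p = 7.32e-05). Gpt2 was higher in the presence of EGF (log2 0.21 ± 0.06, edgeR adjusted p = 0.00939) and did not pass without it (log2 -0.12 ± 0.07, edgeR adjusted p = 0.179). Asns did not pass in either state (log2 -0.04 ± 0.06, edgeR adjusted p = 0.606 and log2 0.01 ± 0.07, edgeR adjusted p = 0.956). The 95% intervals of its log2 change were -0.18 to 0.09 with EGF and -0.15 to 0.16 without.

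Among the synthetases, Tars and Nars were lower in both states and Mars higher. Tars changed by log2 -0.32 ± 0.05 with EGF (edgeR adjusted p = 0.000163) and -0.24 ± 0.06 without (edgeR adjusted p = 0.00453). Nars changed by log2 -0.18 ± 0.05 and -0.21 ± 0.05 (edgeR adjusted p = 0.00831 and 0.00777). In the absence of EGF, Tars no longer passed without replicate 1 of control siRNA alone (edgeR adjusted p = 0.0968), and Nars without replicate 1 of control siRNA alone (edgeR adjusted p = 0.101). Mars stood at 467, 483 and 469 CPM with the Arid1a siRNAs and EGF, against 399, 416 and 416 CPM with control siRNA and EGF. The libraries held 397, 389 and 409 CPM with the Arid1a siRNAs alone, against 351 and 345 CPM with control siRNA alone. Its libraries were apart in both states (log2 0.21 ± 0.05, edgeR adjusted p = 0.00179 and log2 0.20 ± 0.05, edgeR adjusted p = 0.00697). With EGF, Cars, Aars and Yars were also higher and Wars lower, at log2 0.23 ± 0.05, 0.19 ± 0.05, 0.16 ± 0.06 and -0.14 ± 0.05. Yars no longer passed without replicate 2 or 3 of the Arid1a siRNAs and EGF, or replicate 1 or 3 of control siRNA and EGF (edgeR adjusted p between 0.0598 and 0.172). It also missed with DESeq2 (adjusted p = 0.0542) and without the filter on low counts (edgeR adjusted p = 0.0864). In FPKM it missed too (limma adjusted p = 0.0541 and 0.0544 with 1 and 0.1 added to each value). Wars no longer passed without replicate 1 or 2 of the Arid1a siRNAs and EGF, or replicate 1 or 2 of control siRNA and EGF (edgeR adjusted p between 0.0592 and 0.067). Without EGF, Eprs was higher (log2 0.19 ± 0.06, edgeR adjusted p = 0.0166), which no longer passed without replicate 1 of control siRNA alone (edgeR adjusted p = 0.105), and Sars, which did not pass (log2 0.18 ± 0.07, edgeR adjusted p = 0.0597), passed without replicate 3 of the Arid1a siRNAs and EGF, or replicate 2 of the Arid1a siRNAs alone, or replicate 1 of control siRNA alone (edgeR adjusted p between 0.0106 and 0.049). Cars without EGF had a log2 change of 0.13 ± 0.06 and passed without replicate 1 of the Arid1a siRNAs alone (edgeR adjusted p = 0.0484). The blocked fit of the 2 groups with EGF also called Gars (log2 -0.09, edgeR adjusted p = 0.00448) and Sars (log2 0.08, edgeR adjusted p = 0.0213).

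Outside the set, Eif4ebp1 was lower with the Arid1a siRNAs, at 25.3 ± 2.18 CPM with the Arid1a siRNAs and EGF against 67.7 ± 2.77 CPM with control siRNA and EGF (log2 -1.42 ± 0.09, edgeR adjusted p = 3.44e-08, means ± SD, n = 3 each). Without EGF it stood at 15.3 ± 2.29 CPM with the Arid1a siRNAs (SD, n = 3), against 39.5 ± 1.96 CPM with control siRNA (SD, n = 2, log2 -1.38 ± 0.11, edgeR adjusted p = 4.27e-07). Over the 13 other reported ATF4 targets tested, 5 rose and 1 fell with EGF, and 3 rose and 3 fell without. With EGF that was 38.5% and 7.69%, against 23.7% and 23.2% of all genes. In cells without EGF it was 23.1% in each direction, near the 18.8% and 20.1% of all genes. Without replicate 1 of control siRNA alone, the counts in cells without EGF were 1 and 1. Of the 14 genes for eIF2 kinases, their regulators, phosphatase subunits and eIF2B, 3 rose and 4 fell with EGF, and 4 rose and 4 fell without, against 23.7% and 23.2%, and 18.8% and 20.1%, of all genes. The 3 higher became 5 in a blocked fit of the groups with EGF, and the 4 lower without EGF became 2 without replicate 2 of the Arid1a siRNAs alone and 1 without replicate 1 of control siRNA alone. Eif2b2, a subunit of eIF2B, was lower without EGF (log2 -0.42 ± 0.10, edgeR adjusted p = 0.00451) and no longer passed there without replicate 1 of control siRNA alone (edgeR adjusted p = 0.0514). Eif2ak3, the eIF2 kinase of the endoplasmic reticulum, and Impact, an inhibitor of GCN2 activation, were higher in both states, by log2 0.72 ± 0.07 and 0.69 ± 0.08, and 0.94 ± 0.08 and 0.82 ± 0.09. Of the other cytosolic synthetases and scaffolds, 0 rose and 4 fell with EGF, a count of 2 without replicate 2 of control siRNA and EGF and of 7 in the blocked fit, and 1 of 11, Eef1e1, fell without EGF (log2 -0.26 ± 0.10, edgeR adjusted p = 0.0461). Eef1e1 no longer passed there with upper-quartile scaling (edgeR adjusted p = 0.139) or without replicate 1 of control siRNA alone (edgeR adjusted p = 0.421), among other libraries. Among 17 mitochondrial synthetases 4 rose and 4 fell with EGF, and 5 rose and 3 fell without, shares that with EGF were near those of all genes. The 4 lower became 2 without replicate 2 of control siRNA and EGF, and the 5 higher became 3 without either replicate of control siRNA alone. Cars2 was higher and Ears2 lower in both states (log2 0.65 ± 0.08 and 0.47 ± 0.08 for Cars2, -0.56 ± 0.08 and -0.52 ± 0.09 for Ears2).

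The difference between the EGF responses, the response after the Arid1a siRNAs minus that after control siRNA, passed for 0 of the 41 genes in edgeR, against 0.944% of all genes (0.562% higher and 0.382% lower). With DESeq2 and with limma-voom the number was also 0. At an unadjusted p under 0.05 there were 7 genes: Cebpb, Sesn2, Slc38a2, Pck2, Gpt2, Aars and Eprs. The share of all genes at that threshold was not counted, so whether 7 is more than the background cannot be told. The smallest edgeR adjusted p was 0.127, for Gpt2, at a log2 difference of 0.33 ± 0.09. Cebpb had the largest difference (log2 0.60 ± 0.21, edgeR adjusted p = 0.271), with a 95% interval of 0.16 to 1.04. Of the 41 genes 32 had a log2 difference within 0.2 of 0. A test not passed does not show equal responses: the interval was -0.16 to 0.20 for Atf4, -0.26 to 0.16 for Asns, -0.34 to 0.35 for Slc7a1, -0.07 to 0.71 for Trib3, -0.25 to 0.57 for Chac1 and -0.12 to 0.44 for Ddit3. Asns, Atf4, Chac1, Ddit3 and Trib3 had differences of -0.05 ± 0.10, 0.02 ± 0.08, 0.16 ± 0.19, 0.16 ± 0.13 and 0.32 ± 0.18.

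The EGF responses after each siRNA were measured in separate libraries. Across the 41 genes their log2 changes had a Pearson correlation of 0.854 and a Spearman correlation of 0.882, and 38 of 41 had the same sign. The Arid1a siRNA changes with and without EGF, also from separate libraries, had correlations of 0.878 and 0.811, with 33 of 41 of the same sign. These are descriptions across genes, which are not independent replicates. The same correlations over all genes were not computed, so whether the agreement is particular to the set cannot be told. The Arid1a siRNA changes share libraries with the EGF changes, so these are not set against each other.

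**Figure D4:**
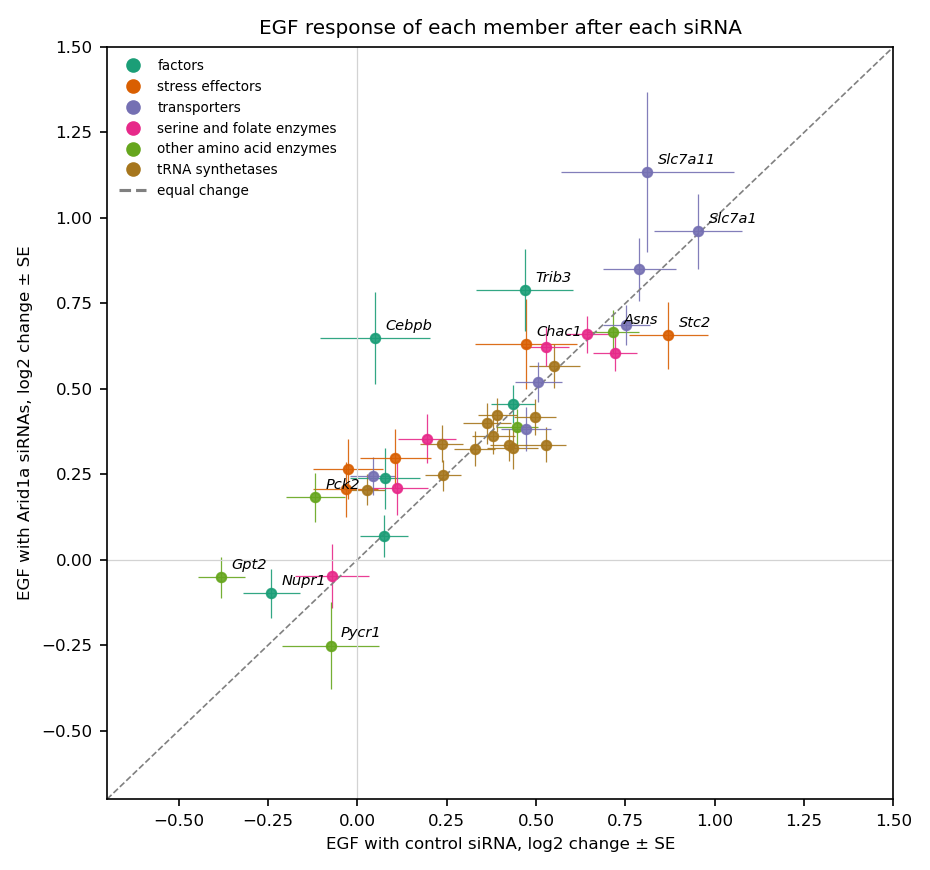
EGF response after the Arid1a siRNAs (vertical axis) against that after control siRNA (horizontal axis), as log2 change with standard errors, for the 41 genes coloured by role. The dashed line marks equal change, and 38 of 41 genes have the same sign on both axes. Cebpb lies farthest above the line, at 0.65 against 0.05.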

How the data were processed

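Poly(A) RNA of 11 libraries was sequenced. Per the labels, libraries were made from TRIzol-extracted total RNA with the TruSeq RNA v2 kit. Per the submitters' processing notes, the authors used TopHat2 2.1.1, the mouse build mm9, HTSeq 0.9.1, Cuffdiff 2.2.1.5 and Cuffnorm 2.2.1.2. Counts as deposited are raw reads per gene symbol. The deposited FPKM values are normalised by the authors, by a scheme not given in the sources used here. Of the FPKM columns 9 were used, for levels per length and as an alternative unit, and 3 could not be matched to samples and were not used.

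Genes passed filterByExpr (minimum count 10, minimum total 15), libraries were scaled by TMM, and edgeR 4.0.16 in R 4.3.3 fitted 4 group means over all 11 libraries by robust quasi-likelihood (7 residual degrees of freedom). P-values were adjusted by Benjamini-Hochberg over all 13343 genes tested, with a threshold of 0.05, and "passed", "rose" and "fell" refer to it. Changes are Arid1a siRNAs over control siRNA, or EGF over no EGF, as log2 with SE. CPM uses TMM-scaled library sizes. The code was tested on simulated data. Alternatives used DESeq2 1.42.0, limma 3.58.1, other scalings, filters and samples. Depth was 10279763 to 19773007 counted reads. No library was a copy of another: their counts differed by 1.57 to 10.9 in chi-square over degrees of freedom, between replicates.

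The members and lists were chosen with earlier results of these data known. Named genes are, for each role and comparison, the 3 that passed with the largest change, with Atf4, Ddit3, Trib3, Chac1 and Asns throughout. From other lists at most 3 per comparison were named by size. Other genes named because they missed the test, lost it without 1 library or completed a role were chosen after their values were seen. For the Arid1a siRNAs with EGF, deviations of same-numbered libraries correlated across genes at 0.14, 0.303 and 0.129. Libraries of different number there correlated between -0.188 and 0.065. Deviations were taken from group means, so these values are not independent. The labels do not say that the numbers mark pairs, so pairing was not established. Same-numbered libraries correlated at -0.188 and -0.381 for EGF with control siRNA, and at 0.0435, -0.302 and -0.111 for EGF with the Arid1a siRNAs. For the Arid1a siRNAs without EGF the values were 0.0504 and 0.316. With 2 libraries of control siRNA alone the deviations mirror each other, so pairing there cannot be told. Promoter windows came from RefSeq (GRCm38.p6), and near copies were sought with BLAST 2.17.0. Gene coordinates in mm9 were not used. A marker and some promoter stretches are not reported here.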

Additional observations from a re-analysis of the deposited data

Results flagged for a closer look

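Among all lists examined, the EGF response differed between the siRNA states for 2 genes outside the set. Shmt1, the cytosolic counterpart of Shmt2, averaged 174 ± 1.55 CPM with the Arid1a siRNAs and EGF, against 121 ± 0.543 CPM with the Arid1a siRNAs alone (SD, n = 3 each). It averaged 226 ± 9.16 CPM with control siRNA and EGF (SD, n = 3), against 123 ± 1.18 CPM with control siRNA alone (SD, n = 2). The EGF response after the Arid1a siRNAs minus that after control siRNA was log2 -0.35 ± 0.07 (edgeR adjusted p = 0.037). It no longer passed when any library other than replicate 3 of the Arid1a siRNAs alone was left out (edgeR adjusted p between 0.0651 and 0.119), or with the replicate number as a block (edgeR adjusted p = 0.118).

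Nkx6-1, a factor of islet cells from the islet list, averaged 1.38 ± 0.351 CPM with the Arid1a siRNAs and EGF, against 1.75 ± 0.171 CPM with the Arid1a siRNAs alone (SD, n = 3 each). It averaged 0.686 ± 0.205 CPM with control siRNA and EGF (SD, n = 3), against 3.56 ± 0.238 CPM with control siRNA alone (SD, n = 2). The difference between the responses was log2 2.03 ± 0.37 (edgeR adjusted p = 0.016). It no longer passed without replicate 2 of the Arid1a siRNAs and EGF, or replicate 1 or 2 of control siRNA and EGF (edgeR adjusted p between 0.0547 and 0.0661), or with the replicate number as a block (edgeR adjusted p = 0.0509).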

How the results depend on the processing

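Of 4100 recomputed changes of the 41 genes, 3982 kept their side of the threshold, 97 lost the threshold and 21 gained it. Of changes that passed in either run, 0 turned round. Changes that passed in neither run were counted as kept even where their sign turned. That of Ddit4 with EGF after control siRNA ranged from log2 -0.21 to 0.15. For the genes of other lists that had passed and were among the 3 with the largest change in their list, 2430 of 2593 were kept, 163 lost and 0 turned round, and genes that gained the threshold were not counted there. Leaving out each library in turn, the number of the 41 genes higher with EGF was 30 to 33 after the Arid1a siRNAs and 23 to 26 after control siRNA, and the number lower was 0 and 1 to 2. For the Arid1a siRNAs it was 15 to 18 higher and 5 to 7 lower with EGF, and 8 to 11 higher and 3 to 6 lower without. The low of 3 was without replicate 1 of control siRNA alone. The 11 higher there became 6 when only the groups compared were fitted, which leaves fewer samples to estimate the spread. The difference between the EGF responses passed for 0 of the 41 genes in each alternative run. With the replicate number as a block over all 11 libraries, 1 gene in place of 2 fell with EGF after control siRNA, and Chac1 and Nupr1 (EGF, control siRNA), Ddit4 and Stc2 (Arid1a siRNAs, no EGF) and Sesn2 and Vldlr (EGF, Arid1a siRNAs) no longer passed. Same-numbered libraries correlated at 0.0504 and 0.316 for the Arid1a siRNAs without EGF, and mostly below 0 in the EGF contrasts. Where control siRNA alone was compared, its 2 libraries cannot tell whether the numbers pair. In a blocked fit of the groups with EGF, chosen after seeing the data, the only changes among the 41 genes were those of Gars, Mthfd2 and Sars given in the report. Over all genes, the EGF response after the Arid1a siRNAs had 3119 genes past the threshold and 1932 in a blocked fit of its 2 groups, also chosen after seeing the data, where Aars, Sesn2 and Slc38a2 no longer passed. The difference between the responses had 126, and 55 to 178 over the alternatives. The causes were not tested. With upper-quartile scaling, Cebpg (Arid1a siRNAs, each state), Wars (with EGF), Nars (without) and Sesn2 (EGF, Arid1a siRNAs) no longer passed, and 3 calls were gained. Without the filter on low counts Slc38a2, Slc7a5 and Yars (Arid1a siRNAs with EGF) and Cebpg (without) were lost, and 2 gained. DESeq2 lost Yars, Sesn2, and Stc2 and Cebpg (Arid1a siRNAs, no EGF). FPKM columns allowed only the contrasts Arid1a siRNAs with EGF and EGF with Arid1a siRNAs. Slc7a11 had the lowest reads of the 41 genes, at 33 to 160 per library, and a wide error.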

Other observations

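Neighbouring pathways were counted from lists of other genes. For all the counts below, the shares of all genes were 13.0% higher and 10.4% lower with EGF after the Arid1a siRNAs. After control siRNA they were 16.8% and 18.8%. With the Arid1a siRNAs they were 23.7% and 23.2% in the presence of EGF, and 18.8% and 20.1% without it. Of 9 tested one-carbon and glycine enzymes outside the set, 4 rose and 0 fell with EGF after the Arid1a siRNAs, and 4 rose and 1 fell after control siRNA (2 and 0 without replicate 1 of control siRNA alone). Mthfd1l, which releases formate from mitochondria, rose with EGF (log2 0.66 ± 0.06, edgeR adjusted p = 3.21e-06 after the Arid1a siRNAs, log2 0.68 ± 0.07, edgeR adjusted p = 2.02e-06 after control siRNA). It fell with the Arid1a siRNAs (log2 -0.69 ± 0.06, edgeR adjusted p = 3.47e-07 with EGF, log2 -0.67 ± 0.07, edgeR adjusted p = 3.37e-06 without). With the Arid1a siRNAs 2 of the 9 rose and 4 fell in the presence of EGF, and 2 rose and 3 fell without it. The share that rose, 22.2% in each state, was near that of all genes. Amt, of the glycine cleavage system, rose in both states (log2 1.24 ± 0.16, edgeR adjusted p = 1.81e-05 and log2 0.74 ± 0.16, edgeR adjusted p = 0.002).

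Of 13 chaperones and other folding genes of the endoplasmic reticulum, 7 rose and 1 fell with EGF after each siRNA. After the Arid1a siRNAs the 7 became 4 without replicate 2 of the Arid1a siRNAs alone or replicate 3 of the Arid1a siRNAs and EGF. Hyou1, a chaperone, rose by log2 0.41 ± 0.06 and 0.55 ± 0.07. With the Arid1a siRNAs 1 rose and 4 fell with EGF, and 1 rose and 3 fell without. The 4 lower ranged between 2 and 7 over the alternatives. Sel1l, of the degradation pathway, was the gene with the largest rise (log2 0.96 ± 0.08, edgeR adjusted p = 2.55e-07 and log2 0.53 ± 0.09, edgeR adjusted p = 0.000243).

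Of 10 targets of the oxidative stress factor NRF2, 6 rose and 0 fell with EGF after the Arid1a siRNAs (2 to 6 higher over the alternatives), and 3 rose and 1 fell after control siRNA (1 higher without replicate 1 of control siRNA alone). Osgin1 rose by log2 0.75 ± 0.12 and 0.70 ± 0.15. With the Arid1a siRNAs 4 rose and 3 fell with EGF (2 to 6 higher over the alternatives), and 2 rose and 3 fell without. The share higher without EGF, 20%, was near the 18.8% of all genes, and 30% fell against 20.1%. Hmox1, haem oxygenase, fell in both states (log2 -1.14 ± 0.10, edgeR adjusted p = 7.59e-07 and log2 -1.31 ± 0.11, edgeR adjusted p = 7.43e-07).

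Among cell type markers, 2 of 7 tested ductal markers rose and 0 fell with EGF after the Arid1a siRNAs, and 3 rose and 1 fell after control siRNA. For 4 tested islet markers it was 2 and 0, and 2 and 1. With the Arid1a siRNAs 1 ductal marker rose and 3 fell with EGF, and 1 rose and 2 fell without. For islet markers it was 1 and 3, and 0 and 2. In the list of fibroblasts and stellate cells (8 tested), 0 rose and 1 fell with EGF after the Arid1a siRNAs, 1 rose and 1 fell after control siRNA, 0 rose and 1 fell with the Arid1a siRNAs in the presence of EGF, and 1 rose and 2 fell in its absence. In the list of immune and endothelial cells (2 tested), each of these 4 comparisons had 1 higher and 0 lower (0 to 2 higher over the alternatives). The genes were Cd68 with EGF and Kdr with the Arid1a siRNAs, and DESeq2 called neither. The 2 higher islet markers after the Arid1a siRNAs, Ppy and Chga, became 0 without replicate 2 of the Arid1a siRNAs alone and 1 without its replicate 1. The 2 higher ductal markers there became 1, with Sox9 lost, without any 1 library of the Arid1a siRNAs and EGF or without replicate 1 or 2 of the Arid1a siRNAs alone. Col3a1, the fibroblast marker lower with EGF, no longer passed after the Arid1a siRNAs without replicate 1 or 3 of the Arid1a siRNAs and EGF or replicate 2 or 3 of the Arid1a siRNAs alone, nor after control siRNA without replicate 1 or 2 of control siRNA and EGF or replicate 1 of control siRNA alone.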
